A study of Mus musculus with 14 samples.

Results

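The genes described here are 7 small heat shock genes (Cryab, Hspb1, Hspb2, Hspb3, Hspb6, Hspb7 and Hspb8) and 3 genes of the myosin folding machinery (Unc45b, Smyd1 and Hsp90aa1). They were picked by symbol from a table of 24016 RefSeq transcripts, 1 per gene, in which all 10 were found, and all 10 averaged 1 or more across the 8 libraries, as did 14312 transcripts in all. RNA was measured in C2C12, an established line of mouse myoblasts that fuse into myotubes when serum is lowered. Cells received a control siRNA (siCtrl) or a pool of siRNAs against Klf5 (siKlf5), a zinc finger transcription factor, and were sampled on days 0, 1, 2 and 3 after the change to differentiation medium with 2% horse serum. Each siRNA and day had 1 library of poly(A) RNA, so no single day had a replicate check, and the 6 chromatin samples are not analysed here. Knockdown with siRNA leaves part of the target message, and this cell line has no fibres, nerves or load.

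Small heat shock proteins bind unfolding proteins without using ATP and hold them in a state from which other chaperones can refold them. Striated muscle is known for holding many of them, where they associate with desmin, actin and titin in and around the sarcomere. The myosin motor domain needs its own folding machinery, in which UNC45B brings Hsp90 to nascent myosin and SMYD1, a lysine methyltransferase of muscle, takes part in thick filament assembly.

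Recovered depth ranged from 7850497 reads (siCtrl day 1) to 20301506 reads (siCtrl day 2), and the other 6 libraries held between 8119452 and 12366627. Klf5 itself was lower in siKlf5 on each day, at 15.7%, 41.9%, 31.3% and 22.7% of the siCtrl value on days 0 to 3. The cells carried the markers of their label: Myog, a myogenic factor of differentiating cells, went from 479 to 2293 FPKM between day 0 and day 3 in siCtrl and from 328 to 1386 in siKlf5, and all 7 myotube markers tested rose. Markers of fat, bone, endothelium, blood, epithelium and heart, 15 genes in all, summed to between 8.16 and 75.9 FPKM, and 3 of them (Nppa, Plin1 and Epcam) were at 0 in each library. The highest of these sums came from Myh6, a heart and slow muscle myosin, which read 1.53 and 52.4 on days 0 and 3 of siCtrl and 0.936 and 12.3 in siKlf5. FPKM here is on the scale of the deposited table, which is larger than the usual one, and is per length of transcript, so levels of different genes can be set side by side.

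Over differentiation the 10 genes went different ways. Unc45b, Hspb7, Hspb3, Smyd1, Hspb2, Hspb8 and Cryab rose from day 0 to day 3, Hspb6 and Hsp90aa1 fell, and Hspb1 did not pass the test. In all 9 of 10 were called by limma in the contrast of day 3 with day 0 over both siRNA arms, 7 higher and 2 lower, where 30.4% of all transcripts were called (12.8% higher and 17.6% lower). The median log2 difference of the 10 was 1.34, against -0.09 over all transcripts tested. Scaling the libraries by their upper quartile or by median ratios moved the median of all transcripts by 0.10 at most on the log2 scale and left the same counts of 7 higher and 2 lower among the 10. Over all transcripts the split of 1831 higher and 2516 lower turned to 2151 and 1878 with the upper quartile and to 2173 and 1828 with median ratios. A rise or fall in a whole culture may come from the share of cells that had differentiated or from the RNA per cell, and these cannot be told apart.

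**Figure D1:**
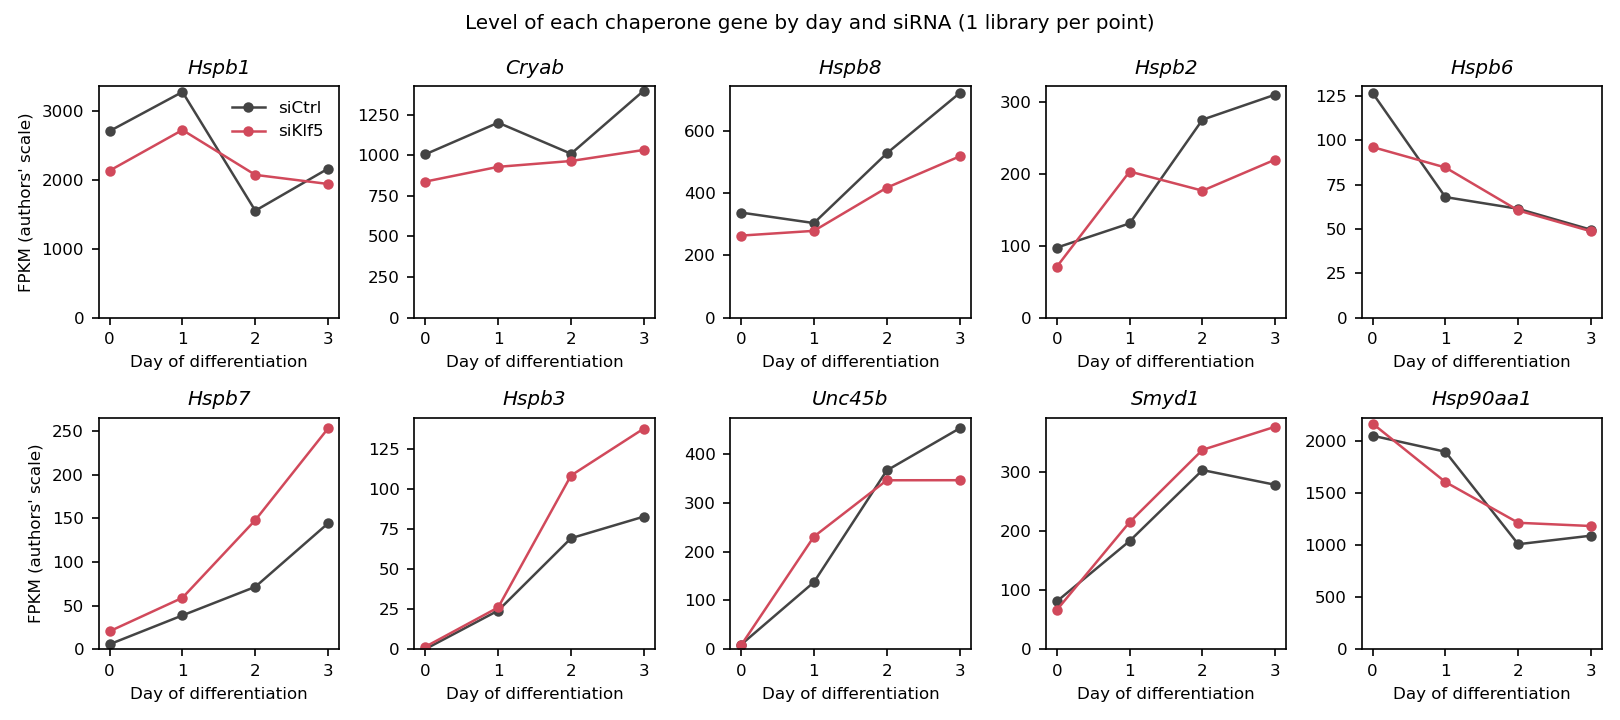
Level of each of the 10 genes (FPKM, linear axis from 0) against the day of differentiation, in siCtrl (grey) and siKlf5 (red); each point is 1 library. Unc45b, Hspb7, Hspb3 and Smyd1 start low and climb, Hspb6 and Hsp90aa1 decline, and the siKlf5 line of Hspb7 lies above the siCtrl line on all 4 days.

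Hspb1 (HSP25 of the mouse, an actin-associated chaperone) and Cryab (alpha B-crystallin, a chaperone of desmin and titin) were the most abundant small heat shock genes in every library. Hspb1 read 2707, 3275, 1551 and 2163 FPKM on days 0, 1, 2 and 3 of siCtrl and 2133, 2723, 2071 and 1939 in siKlf5. It was highest on day 1 in both arms, and its day 3 minus day 0 difference was -0.23 on the log2 scale (SE 0.19, adjusted p = 0.392, limma). Its lowest value fell on siCtrl day 2, in the deepest library, where Hsp90aa1 and Hsp90ab1 were lowest as well. At most 3 reads were kept per position in these data, which can weigh more on abundant transcripts in deep libraries, and its part in these values was not tested.

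Cryab read 1006, 1201, 1009 and 1399 FPKM in siCtrl and 838, 929, 965 and 1033 in siKlf5. Its rise was the smallest of the called ones, with a log2 difference of 0.39 (SE 0.12, adjusted p = 0.0415), that is 1.39-fold in siCtrl and 1.23-fold in siKlf5. The call was lost without the filter on low values (adjusted p = 0.164), without the trend of the variance (adjusted p = 0.133) and without day 1 (adjusted p = 0.0709), while it held in the other 6 alternatives. Hspb8, which works with the co-chaperone BAG3 in chaperone-assisted autophagy, read 338, 304, 529 and 723 in siCtrl and 264, 279, 418 and 519 in siKlf5. It stayed near its starting level until day 1 in both arms and then rose, with a log2 difference of 1.04 (SE 0.11, adjusted p = 0.00049).

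Hspb2, a partner of Hspb3 in muscle, read 97.3, 131, 275 and 310 FPKM in siCtrl and 70.7, 203, 176 and 220 in siKlf5. Both day 3 values lay above both day 0 values, and the rise was 3.19-fold in siCtrl and 3.11-fold in siKlf5 (log2 difference 1.65, SE 0.28, adjusted p = 0.00349). This call was lost without the filter on low values (adjusted p = 0.102) and without the trend of the variance (adjusted p = 0.0525). In siKlf5 the value was already at 203 on day 1, whereas siCtrl passed that level between days 1 and 2. Reads behind these values were few, between 70 and 512 per library.

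Hspb3 was the one gene absent at the start. It had 0 reads in siCtrl and 2 reads (1.44 FPKM) in siKlf5 on day 0, then 24.1, 69.3 and 82.8 FPKM in siCtrl and 26.0, 108 and 138 in siKlf5 on days 1 to 3. Set against a floor of 3 reads per library, siCtrl was at least 42.2-fold higher on day 3 than on day 0. In siKlf5 the ratio was 95.8-fold on 192 against 2 reads, with a 95% counting interval that began at 3.03 on the log2 scale and had no upper end. Those 2 reads lie under the floor, so this fold and the bound for siCtrl cannot be set side by side. The contrast over both arms called Hspb3 (adjusted p = 0.000364), but its fitted size depends on the pseudocount and is left out here.

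Hspb7, a chaperone of heart and skeletal muscle known for its role at actin filaments, read 5.52, 38.7, 71.4 and 144 FPKM in siCtrl and 20.4, 58.9, 148 and 253 in siKlf5. Each day was higher than the day before in both arms, and day 3 lay 26.2-fold above day 0 in siCtrl and 12.4-fold in siKlf5 (log2 difference 4.16, SE 0.30, adjusted p = 6.9e-05). Hspb6 (HSP20, also found in smooth muscle) went the other way. It read 127, 67.9, 61.3 and 49.5 in siCtrl and 96.2, 84.6, 60.4 and 48.6 in siKlf5, and fell by 1.17 on the log2 scale (SE 0.21, adjusted p = 0.00441), a call lost without the filter on low values (adjusted p = 0.0527). Day 3 stood at 39.1% of day 0 in siCtrl and at 50.6% in siKlf5, so only siCtrl was past 2-fold. Lin37 on the other strand lies 2 bases from Hspb6 and reads were counted on both strands; it had 91 to 312 reads per library and read 73.6 and 64.3 FPKM on days 0 and 3 of siCtrl and 77.6 and 107 in siKlf5.

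Within single arms, 6 of the 10 genes were more than 2-fold higher on day 3 than on day 0 in siCtrl (15.5% of all transcripts) and 1, Hspb6, more than 2-fold lower (12.7%). In siKlf5 the same counts were 5 (14.9%) and 0 (12.4%). Hspb8 made the difference among the higher ones, with 2.14-fold in siCtrl and 1.97-fold in siKlf5.

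The makeup of the small heat shock pool moved with these changes. Hspb1 accounted for 63.2% of the summed FPKM of the 7 genes on day 0 and 44.4% on day 3 in siCtrl, and for 62.3% and 46.7% in siKlf5. Hspb8 went from 7.90% to 14.8% in siCtrl and from 7.71% to 12.5% in siKlf5, and Hspb2 from 2.27% to 6.36% and from 2.06% to 5.29%. Hspb7 went from 0.129% to 2.97% in siCtrl and from 0.597% to 6.10% in siKlf5, which placed it above Hspb2 on day 3 of siKlf5 and below it on day 3 of siCtrl. The summed level itself stayed between 3423 and 5042 FPKM in the 8 libraries. Shares are descriptions of 1 library each, and a fall in one share raises the others.

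**Figure D2:**
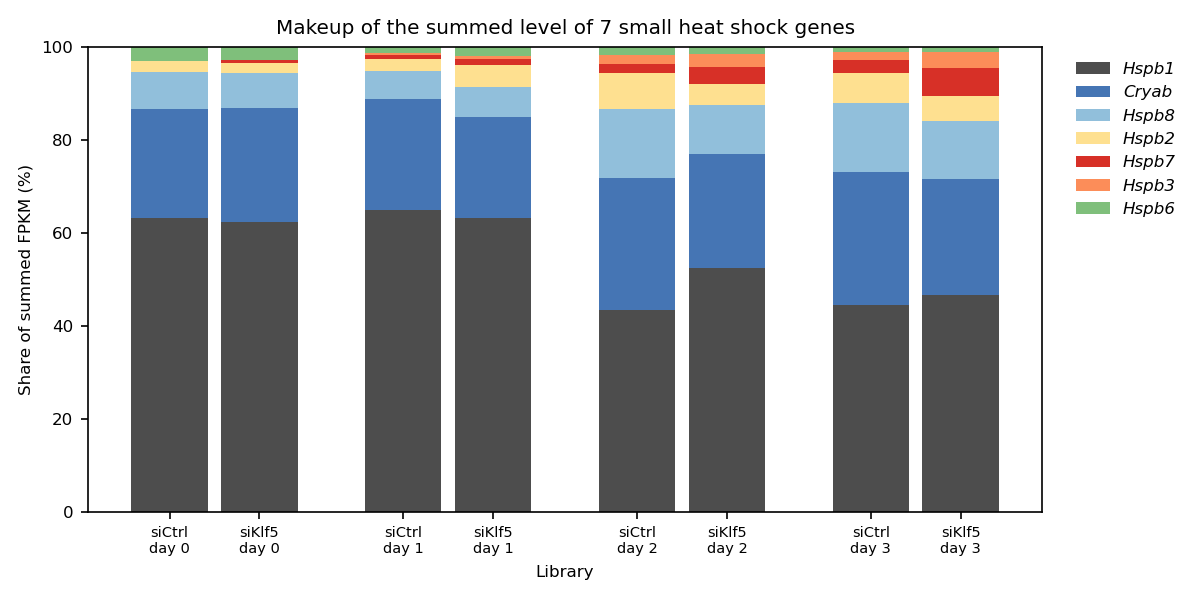
Share of each small heat shock gene in the summed FPKM of the 7 genes (percent, stacked to 100), with 1 bar per library in pairs by day. The Hspb1 part shrinks from 63.2% to 44.4% in siCtrl, and the Hspb7 part reaches 2.97% in siCtrl and 6.10% in siKlf5 on day 3.

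Of the myosin chaperones, Unc45b climbed the most. It read 9.07, 137, 366 and 453 FPKM in siCtrl and 7.76, 231, 346 and 346 in siKlf5, a rise of 49.9-fold and 44.6-fold (log2 difference 5.54, SE 0.25, adjusted p = 6.2e-06). In siCtrl it was still climbing between days 2 and 3, and in siKlf5 days 2 and 3 were level. Its widely expressed paralog Unc45a lay between 70.3 and 141 FPKM in all libraries, so that the ratio of Unc45b to Unc45a went from 0.0830 to 5.27 in siCtrl and from 0.0757 to 4.83 in siKlf5. An antisense transcript, Slfn5os, overlaps Unc45b, and reads were counted on both strands. Its reads amounted to 4.63% to 14.3% of those of Unc45b and went up with it, from 8 to 184 reads between days 0 and 3 of siCtrl, so reads of the overlap cannot be told apart.

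Smyd1 read 80.6, 183, 303 and 278 FPKM in siCtrl and 66.0, 215, 337 and 376 in siKlf5, which is 3.45-fold and 5.69-fold from day 0 to day 3 (log2 difference 2.15, SE 0.17, adjusted p = 9.9e-05). It peaked on day 2 in siCtrl, though the step from day 2 to day 3 was within counting error there (log2 ratio -0.12, 95% counting interval -0.33 to 0.08). Hsp90aa1, the stress-inducible cytosolic Hsp90, read 2052, 1897, 1008 and 1090 in siCtrl and 2168, 1606, 1214 and 1183 in siKlf5, and fell by 0.89 on the log2 scale (SE 0.14, adjusted p = 0.00228). The call was lost without the filter on low values (adjusted p = 0.0609). The constitutive paralog Hsp90ab1 did not pass the test (log2 difference -0.24, SE 0.15, adjusted p = 0.287), and its ratio to Hsp90aa1 went from 1.76 to 2.77 in siCtrl and from 1.77 to 2.79 in siKlf5.

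The order of the levels turned over with differentiation in its lower part. On day 0 of siCtrl it ran Hspb1, Hsp90aa1, Cryab, Hspb8, Hspb6, Hspb2, Smyd1, Unc45b, Hspb7 and Hspb3, and on day 3 Hspb1, Cryab, Hsp90aa1, Hspb8, Unc45b, Hspb2, Smyd1, Hspb7, Hspb3 and Hspb6. Hspb8 came just after Cryab, Hspb1 and Hsp90aa1 in each library, while Hspb6 went from just below Hspb8 to last in both arms. Of the 9 neighbouring pairs per library, 2 (siCtrl day 3) to 5 (siKlf5 day 1) were not apart beyond their counting intervals. On day 3 of siCtrl these were Hspb2 with Smyd1 and Hspb3 with Hspb6, and on day 3 of siKlf5 they were Smyd1 with Unc45b, Hspb7 with Hspb2 and Hspb2 with Hspb3.

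The knockdown comparison asks whether these genes respond to the loss of Klf5. Hspb7 was higher in siKlf5 on each of the 4 days, by 3.70-fold, 1.52-fold, 2.07-fold and 1.75-fold on days 0 to 3. Hspb3 was higher on days 1 to 3, by 1.08-fold, 1.57-fold and 1.66-fold, and Cryab and Hspb8 were lower on all 4 days, between 73.8% and 95.6% and between 71.8% and 91.8% of siCtrl. None of the 10 passed the test of the siRNA term over the 4 days. That test called 9 of 14312 transcripts (0.0629%), 1 higher (0.00699%) and 8 lower (0.0559%), with 1374 at an unadjusted p under 0.05.

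For Hspb7 the intervals of the single days, which cover counting error only, ran from 0.41 to 3.70 on the log2 scale on day 0 (30 against 101 reads), from -0.20 to 1.41 on day 1, from 0.68 to 1.43 on day 2 and from 0.50 to 1.14 on day 3. The mean log2 difference was 1.08 (SE 0.22, unadjusted p = 0.00105, adjusted p = 0.193, limma), with adjusted p-values between 0.139 and 1.0 over the 12 alternatives. Hspb7 was the one member more than 1.5-fold higher on all 4 days, as were 54 transcripts in all (0.377%), and no member was that far lower on all 4 (0.643%). The day 1 ratio of Hspb7, 1.52-fold, lay close to that cutoff and fell short of it with median ratio centring. Without day 0 the mean difference was 0.82. With 4 day pairs an exact permutation test cannot go below a two-sided p = 0.125, the value that Hspb7, Hspb3, Cryab and Hspb8 each reached.

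Hspb3 had log2 ratios of 0.11, 0.65 and 0.73 on days 1, 2 and 3, and all 3 counting intervals held 0 (on day 3 from -0.09 to 1.59). On day 0 both libraries lay under the floor of 3 reads, so no fold is given there. Cryab had log2 ratios of -0.26, -0.37, -0.07 and -0.44 on days 0 to 3, with counting intervals below 0 on days 0, 1 and 3, and a mean of -0.28 (SE 0.08, adjusted p = 0.358). Hspb8 had -0.36, -0.12, -0.34 and -0.48, with intervals below 0 on days 0, 2 and 3, and a mean of -0.32 (SE 0.08, adjusted p = 0.295). Higher on all 4 days were 9.05% of all transcripts and lower on all 4 days 9.03%, against 2 and 2 of the 10 members. The count of 2 higher takes in Hspb3, whose day 0 rests on 2 reads against 0.

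The other genes crossed over between days. Hspb1 was lower in siKlf5 on days 0, 1 and 3 and higher on day 2, with log2 ratios of -0.34, -0.27, 0.42 and -0.16, the last with an interval that held 0. Its mean difference was -0.09 (adjusted p = 0.867), -0.26 without day 2 and -0.0023 without day 0. Hsp90aa1 had log2 ratios of 0.08, -0.24, 0.27 and 0.12, and its mean of 0.06 (adjusted p = 0.887) turned to -0.01 without day 2. The day 2 values of both rest on the deep siCtrl library.

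Unc45b was ahead in siKlf5 on day 1, at 231 against 137 FPKM (log2 ratio 0.75, interval 0.39 to 1.10), and behind on day 3, at 346 against 453 (log2 ratio -0.39, interval -0.58 to -0.19). The mean over the days was 0.01 (adjusted p = 0.988) and turned to -0.23 without day 1. Smyd1 did the opposite by day 3, at 376 against 278 FPKM (log2 ratio 0.44, interval 0.22 to 0.66), with a mean of 0.13 (adjusted p = 0.755) that was 0.27 without day 0 and 0.03 without day 3. So on day 3 both myosin chaperones lay outside counting error, Unc45b below and Smyd1 above siCtrl, and neither difference was tested on its own. Hspb2 was 1.55-fold higher in siKlf5 on day 1 (log2 interval -0.38 to 1.59) and at 64.1% of siCtrl on day 2, and its mean of -0.24 (adjusted p = 0.726) was -0.53 without day 1 and -0.11 without day 2. Hspb6 was within counting error on all 4 days, and its mean of -0.03 (adjusted p = 0.967) turned to 0.09 without day 0.

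Members past 1.5-fold on single days are given here with the share of all transcripts in brackets. On day 0 2 members were higher (9.22% of all transcripts) and 0 lower (11.1%), and of the 2 only Hspb7 had reads to carry a fold. On day 1 Hspb2, Hspb7 and Unc45b were higher (16.4%) and 0 lower (11.0%). On day 2 Hspb3 and Hspb7 were higher (7.69%) and Hspb2 lower (13.0%), and on day 3 Hspb3 and Hspb7 were higher (10.7%) and 0 lower (12.5%). The median log2 ratio of the 10 lay between -0.28 (day 0) and 0.17 (day 1).

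**Figure D3:**
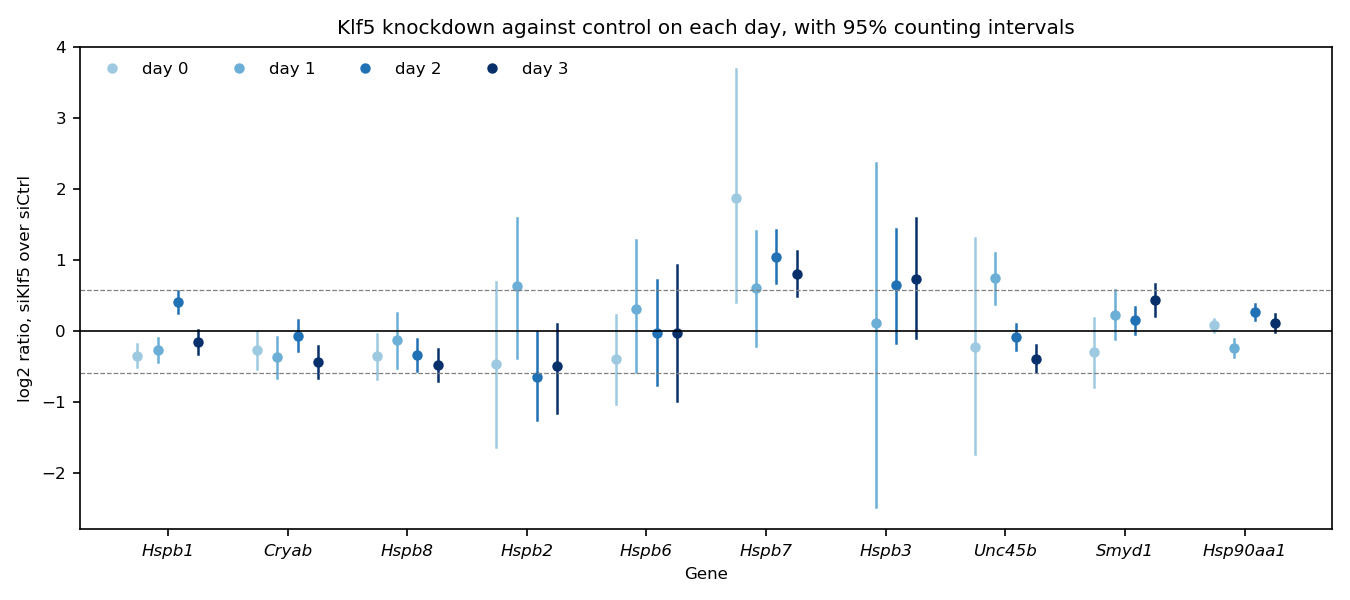
Log2 ratio of siKlf5 to siCtrl for each gene on days 0 to 3 (light to dark blue), with 95% exact counting intervals as bars; dashed lines mark 1.5-fold, and Hspb3 on day 0 is left out. The 4 Hspb7 points lie between 0.61 and 1.87, those of Cryab and Hspb8 lie below 0, and Hspb1, Unc45b and Hsp90aa1 have points on both sides.

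Cryab and Hspb2 lie head to head on chromosome 9 (mm9), with their starts 617 bases apart. Hspb2 is on the minus strand from 50559177 to 50560459 and Cryab on the plus strand from 50561076 to 50564740. Both are protein-coding in the GENCODE annotation of that build, whose Cryab starts 213 bases earlier than the RefSeq transcript counted here. Cryab was 10.3 times as high as Hspb2 on day 0 of siCtrl and 4.51 times on day 3, and 11.9 and 4.70 times in siKlf5. Across the 8 libraries their log2 levels had a Pearson r of 0.54, given as a description since the libraries share days, arms and scaling. Hspb7 lies on chromosome 4 from 140976694 to 140981225 and Hspb3 on chromosome 13 from 114453104 to 114453884, and their r was 0.96. Unc45b lies on chromosome 11 from 82724755 to 82756908, Smyd1 on chromosome 6 from 71163934 to 71212275, and their r was 0.97.

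The 250 bases before the transcript start were read from the mm9 genome (NCBIM37) for all 10 genes and for 23953 transcripts of the table in all. Shown here are those of the head-to-head pair, of the 2 genes with the highest mean siKlf5 to siCtrl ratio and of the myosin chaperone Unc45b. They run 5′ to 3′ on the strand of the gene and end at the base before the start, and capitals mark the E-box letters CANNTG, the motif that myogenic factors of the MyoD family bind. Some windows lie downstream of the first GENCODE start of the gene. That start is 703 bases earlier for Unc45b, 1124 for Hspb6, 6333 for Hsp90aa1 and 59952 for Smyd1. For Cryab it is 213 bases earlier and falls inside the window, upstream of the E-box.
Cryab, chr9:50560826-50561075, plus strand: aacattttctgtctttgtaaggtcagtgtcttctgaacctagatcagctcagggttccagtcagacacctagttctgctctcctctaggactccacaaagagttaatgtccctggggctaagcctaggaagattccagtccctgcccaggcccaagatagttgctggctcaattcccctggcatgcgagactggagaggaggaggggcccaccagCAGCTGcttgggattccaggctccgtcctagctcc
Hspb2, chr9:50560460-50560709, minus strand: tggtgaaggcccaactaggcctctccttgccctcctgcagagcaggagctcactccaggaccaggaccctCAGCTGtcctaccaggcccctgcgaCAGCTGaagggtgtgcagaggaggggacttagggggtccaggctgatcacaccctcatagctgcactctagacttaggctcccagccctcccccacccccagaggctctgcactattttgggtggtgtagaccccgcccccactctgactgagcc
Hspb7, chr4:140976444-140976693, plus strand: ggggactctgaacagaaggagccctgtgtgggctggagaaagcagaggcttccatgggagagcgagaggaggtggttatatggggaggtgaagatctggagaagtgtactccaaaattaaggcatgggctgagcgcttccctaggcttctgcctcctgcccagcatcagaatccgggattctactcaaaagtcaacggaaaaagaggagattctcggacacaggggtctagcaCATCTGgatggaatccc
Hspb3, chr13:114453885-114454134, minus strand: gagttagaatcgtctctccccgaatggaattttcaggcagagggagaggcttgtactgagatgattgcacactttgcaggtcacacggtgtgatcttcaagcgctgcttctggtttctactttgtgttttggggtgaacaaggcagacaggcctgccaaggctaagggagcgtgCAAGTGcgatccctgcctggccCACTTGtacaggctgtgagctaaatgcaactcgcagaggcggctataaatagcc
Unc45b, chr11:82724505-82724754, plus strand: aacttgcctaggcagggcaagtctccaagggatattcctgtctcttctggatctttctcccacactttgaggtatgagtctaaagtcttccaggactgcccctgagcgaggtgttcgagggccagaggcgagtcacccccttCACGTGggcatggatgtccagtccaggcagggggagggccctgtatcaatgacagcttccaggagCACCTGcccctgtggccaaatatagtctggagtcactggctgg

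In these windows Hspb7 has 1 E-box that begins 17 bases before the start, Cryab has 1 at 35 bases and Hspb3 has 2 at 76 and 54 bases. An E-box was found in 8 of the 10 windows, all but those of Hspb6 and Smyd1, in 62.9% of all 23953 and in 57.3% of the 14312 expressed ones. The form CAGCTG was in Cryab and Hspb2 (12.4% of all, 12.3% of expressed). CTANNNNTAG, letters that Mef2 factors bind, was in Cryab, Hspb2 and Hspb3 (3.08% of all, 2.62% of expressed). GAANNTTC, an inverted repeat of the heat shock element, was in Cryab, Hspb1, Hspb3 and Hspb6 (6.01% and 5.11%). CACCC, a site for Klf proteins, was in 5 windows (52.6% and 56.2%), as was CCGCCC (41.6% and 56.5%). Both strands were searched, CAGCTG is counted within CANNTG, and a match is a match of letters only.

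For each gene the 2 transcripts most like it across the 8 libraries, out of 11590 with a mean of at least 10, had r between 0.923 and 0.997. Cryab was most like Bag1 (r = 0.974), a nucleotide exchange factor of Hsp70, and Hsp90aa1 most like Cct5 (r = 0.996), a subunit of the chaperonin that folds actin and tubulin. Unc45b was most like Srpk3 (r = 0.997), a muscle kinase, Hspb7 most like Mybpc1 (r = 0.982), slow myosin binding protein C, and Smyd1 most like Ncam1 (r = 0.996), a cell adhesion molecule. These values share libraries, days and scaling and carry no test.

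In the wider chaperone system more genes fell than rose. Of 89 genes tested in 7 lists of chaperones, co-chaperones and Smyd enzymes, 9 rose and 35 fell from day 0 to day 3, against 12.8% and 17.6% of all transcripts. Among 20 genes of Hsp90 and its co-chaperones 0 rose and 10 fell (median log2 difference -0.40). Fkbp4, an immunophilin that binds Hsp90, fell by 1.01, and Aarsd1 by 1.29, while the largest positive values, 0.17 for Tomm34 and 0.06 for Cdc37l1, did not pass. Among 16 chaperonins and prefoldins 0 rose and 12 fell (median -0.57), led by the mitochondrial pair Hspd1, which fell by 1.32, and Hspe1, which fell by 1.09. The highest values of that list, 0.41 for Pdrg1 (adjusted p = 0.0554) and 0.10 for Pfdn5 (adjusted p = 0.650), did not pass. With the upper quartile and median ratio scalings 8 of the Hsp90 list fell, and 9 and 8 of the chaperonin list fell with 1 higher.

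Hsp70, Hsp110 and their exchange factors were mixed, with 4 of 24 higher and 6 lower (median -0.20). The shares of all transcripts to set beside the counts of each list were again 12.8% higher and 17.6% lower. Hspa1l, an Hsp70, rose by 1.25 and Sil1, an exchange factor of the endoplasmic reticulum, by 0.76, and Bag4 fell by 1.03 and Hspa12a by 1.01. J-domain proteins, which pass clients to Hsp70, had 4 of 19 higher and 4 lower (median -0.13). Dnajb5 rose by 1.78, from 63.3 to 262 FPKM in siCtrl and from 75.5 to 215 in siKlf5, and Dnaja4 by 0.98, whereas Dnajc2 fell by 0.91 and Dnajb4 by 0.85. Of 4 heat shock factor genes 1 was called, Hsbp1, a binding protein of the factors, at 0.36. Hsf1, the main stress-responsive factor, had -0.18 (adjusted p = 0.278), Hsf2 had -0.05 and Hsf4 had 0.71 (adjusted p = 0.105).

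Smyd1 rose, and of 4 other Smyd genes 0 rose and 3 fell (median -1.0), against 12.8% and 17.6% of all transcripts. Smyd4 fell by 1.24 and Smyd5 by 1.12, and Smyd3 was at 0.57 (adjusted p = 0.239). Of the genes outside the 10 that were listed with the small heat shock genes, Cryaa was at 0 in all libraries. Hspb11, listed by its symbol only, had a log2 difference of -0.60 (adjusted p = 0.137). The filament proteins that these chaperones serve rose in 10 of 11 cases (median 4.70), against 12.8% of all transcripts. Among them Myh8, the perinatal myosin heavy chain, was at 6.40 and Actn2, the alpha-actinin of the Z-disc, at 6.30. Vim, the intermediate filament of myoblasts, had -0.38 (adjusted p = 0.171).

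**Figure D4:**
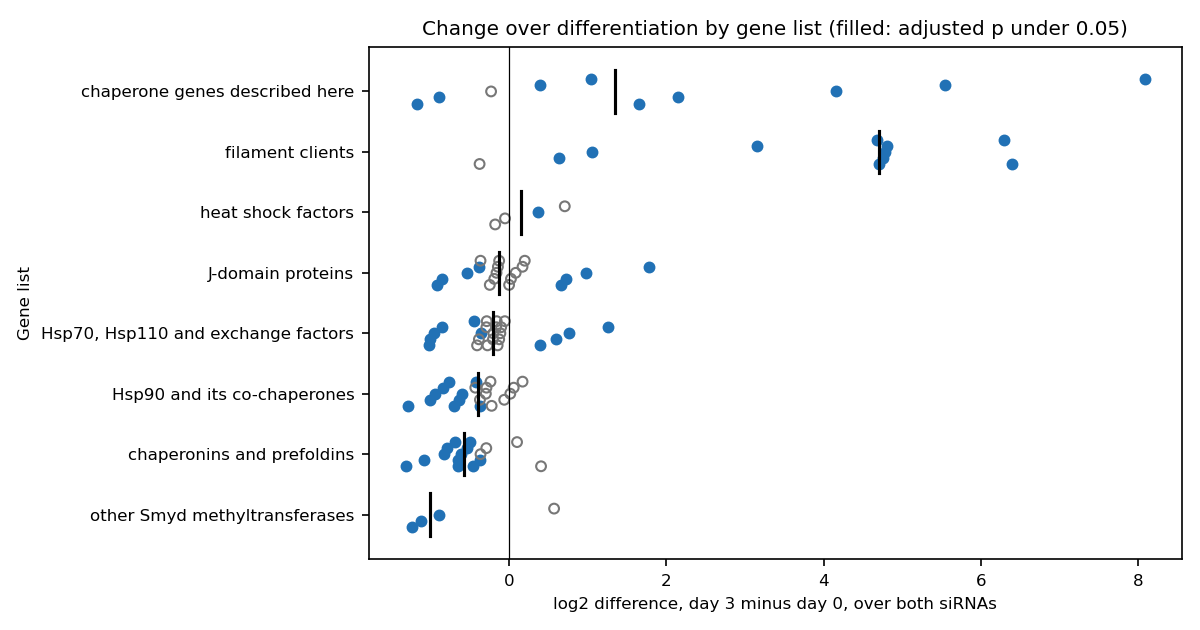
Log2 difference between day 3 and day 0 over both siRNA arms for each gene of the lists (1 point per gene, filled where the adjusted p was under 0.05; black bars are medians; the height within a list only separates points). The median of the chaperone genes described here is 1.34 and that of the filament clients 4.70, while those of Hsp90 with its co-chaperones and of the chaperonins are -0.40 and -0.57.

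In the knockdown 0 of the 89 chaperone system genes passed, with 0.00699% of all transcripts called higher and 0.0559% lower. Those named by the rule had mean differences of 0.62 for Dnajb14 (adjusted p = 0.513), -0.39 for Hspa1l (adjusted p = 0.677) and -0.33 for Hspbap1 (adjusted p = 0.767), and Tomm34 had 0.57 (adjusted p = 0.288). Of the filament clients Myh4, the fast IIb myosin heavy chain, was called and was the one transcript of the whole table called higher. It read 7.97, 22.6, 71.2 and 228 FPKM in siCtrl and 25.6, 53.0, 231 and 598 in siKlf5, a mean log2 difference of 1.5 (SE 0.14, adjusted p = 0.0185). The call was lost without the filter on low values, the variance trend or the day term, and with any single day left out. Myh7, the slow myosin heavy chain, read 7.86, 20.6, 106 and 311 in siCtrl and 2.88, 5.11, 15.7 and 55.5 in siKlf5, with a mean of -2.16 (SE 0.29, adjusted p = 0.0727). The embryonic chain Myh3, the most abundant of these, had 0.06 (adjusted p = 0.844). Actn2, also among the 3 most positive over the lists, had a mean of 0.57 (adjusted p = 0.237).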

How the data were processed

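Poly(A) RNA was measured in 8 C2C12 libraries, 1 per siRNA and day, grouped by their labels. Per the labels, the authors aligned paired-end reads to mm9 with STAR and counted exon reads of RefSeq transcripts with HOMER. They deposited FPKM values, set to a matrix total of 1e+07, counting both strands, keeping no more than 3 reads at a position and condensing each gene to 1 transcript. 8 deposited log2 columns were not used, 1 of which names no day.

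Reads were recovered from FPKM and exon length, and 100% of the values checked lay within 0.1 of a whole read. Transcripts with exactly 6 reads were 2.83 to 10.0 times as frequent as those with 5, so the reads were divided by 6 before exact binomial 95% intervals were taken. They cover counting error only, and shallower libraries give wider ones. Log2 ratios used a pseudocount of 0.1 and understate changes of low genes, except that a value of 0 makes them depend on the pseudocount. Folds and percentages are quotients of FPKM without a pseudocount. Tests covered transcripts averaging 1 or more.

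limma 3.58.1 in R 4.3.3 was fitted on log2(FPKM + 0.1) with siRNA and day as factors, 3 residual degrees of freedom, a mean-variance trend, two-sided tests and Benjamini-Hochberg adjustment over 14312 transcripts, called under 0.05. Its error is how far the siRNA difference varied between days. The pairing by day comes from the labels. Where nothing says that the cultures were separate, p-values measure only the spread between these libraries. The fit was also run on simulated counts with no day effects. Their siRNA differences were alike on all days, so that run does not bear on the error of the calls here. Python 3.11.15 with pandas 2.3.3 and scipy 1.17.1 did the rest.

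The members and lists were chosen with earlier results of these data known. Named were all members, Klf5, Myog, Myh3, the paralogs Hsp90ab1 and Unc45a, nearest neighbours where they overlap or adjoin, the 2 largest rises and 2 largest falls over the days in each list, the 3 largest knockdown differences each way over the lists, and the most alike transcripts, all at a mean of at least 10. Myh6, Cryaa, Nppa, Plin1 and Epcam were named after their values were seen. Alternatives were other pseudocounts, filters, scalings, fold cutoffs, no day term, no variance trend and leaving out each day.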

Additional observations from a re-analysis of the deposited data

Results flagged for a closer look

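The siKlf5 to siCtrl ratios of 3 genes lay on opposite sides of 0 on different days, each beyond its counting interval. The share of all transcripts that did so was not counted, so the 3 are not read as a trait of these genes. The differences between days were not tested, since each rests on 1 library per siRNA and day. Hspb1 had a log2 ratio of 0.42 on day 2 against -0.34 on day 0 and -0.27 on day 1. Unc45b had 0.75 on day 1 against -0.39 on day 3. Hsp90aa1 had 0.27 on day 2 against -0.24 on day 1. The siCtrl day 2 library held 20301506 reads, and its part in the Hspb1 and Hsp90aa1 values was not tested.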

How the results depend on the processing

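The count of members called between day 3 and day 0 was 9 and went to 5 without the filter on low values and 7 without the variance trend, and the transcripts called went from 4347 to 2161 and 2593. The siRNA test called 9 transcripts, 0 without the filter or without the trend, 1 without the day term (no pairing by day), and 0 to 0 with any single day left out; no member was called in any of these fits. The mean siKlf5 difference changed sign for Hspb6 (from -0.15 without day 1 to 0.089 without day 0), Unc45b (from -0.23 without day 1 to 0.15 without day 3) and Hsp90aa1 (from -0.014 without day 2 to 0.16 without day 1). Transcripts past 1.5-fold on days 0 to 3 (2914, 3917, 2957 and 3328) became 1761, 2224, 1666 and 1962 past 2-fold, went to 5018, 5254 and 5422 on days 0, 2 and 3 without the filter, and to 1744, 1689 and 2061 with a mean of at least 5. Members past the fold went from 3 to 1 on day 1 with median ratio centring, and past 2-fold were 0 on day 1, 1 on day 2 and 0 on day 3. Between day 3 and day 0, transcripts past 2-fold (4035 in siCtrl, 3913 in siKlf5) became 6077 and 5931 without the filter and 6580 and 6486 past 1.5-fold, where 8 members passed in siKlf5. With intervals on single reads 8, 7, 8 and 9 members left out 0 on days 0 to 3, in place of 4, 4, 5 and 5. The share of all transcripts whose intervals left out 0 was not counted, so these counts have no background. A looser filter tests more low transcripts and a higher fold counts fewer; the cause of the other changes was not tested. Of 240 recomputed member ratios 234 stayed within their counting interval. The other 6 were those of Hspb3 on day 0, which has no such interval, and of Hsp90aa1 over the days in siKlf5. Hsp90aa1 left its interval under both scalings (-0.75 and -0.76). Among ratios past the fold 0 changed sign, and smaller ratios were not checked for a change of sign. Depth limits Hspb3, Hspb2 and Hspb6. On day 0 it also limits Hspb7 (30 reads in siCtrl and 101 in siKlf5) and Unc45b (63 and 49 reads). With 1 library per siRNA and day no error between cultures is known.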
